A study of Mus musculus with 135 samples.

Results

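The genes described here are 10 markers of the dentate gyrus and of other hippocampal fields: Prox1, Dsp, Lct, C1ql2, Tdo2, Calb1, Fibcd1, Homer3, Iyd and Bok. They were selected on their higher reads in the hippocampus than in the cortex of these libraries, and all 10 were found among the 55416 genes of both count tables. The contrast between the tissues therefore chose them and is given as a description, without a test. Tests were run on comparisons of groups within a tissue. They were also run on relations of hippocampal Prox1 with other levels over libraries, among them Prox1 in the cortex of the same mouse.

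RNA from whole pieces of hippocampus and cerebral cortex of male Townes mice was sequenced. In this strain human globin genes replace those of the mouse. AA mice carry the normal adult allele and SS mice the sickle allele, and the methods give an age of 6 months for the mice of the first experiment, which had no drug arm, and none for the later one. RSD is repeated social defeat, in which an aggressor intruder entered the home cage for 2 hours on 6 consecutive days. Minocycline is a tetracycline antibiotic, given in drinking water from 1 day before the first session. AA and SS mice without further words had neither, AA + RSD and SS + RSD mice were defeated, AA + minocycline and SS + minocycline mice had the drug alone, and mice with both are named AA + RSD + minocycline or SS + RSD + minocycline.

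The hippocampus is a folded sheet of cell layers. Granule cells of the dentate gyrus receive input from the entorhinal cortex and send mossy fibres to CA3, and CA3 cells project to the pyramidal cells of CA1. Each field has its own transcript set, so a marker's level in a bulk piece follows how much of the field was taken as well as how strongly its cells express the gene. In bulk RNA, fewer cells of a field and less RNA per cell cannot be told apart.

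Reads on genes ranged from 16295042 to 107713193 in 68 cortex libraries and from 12869149 to 68731008 in 66 hippocampus libraries, and levels are CPM, the reads of a gene per 1000000 reads on genes. In each tissue a library labelled AA + RSD + minocycline (mouse 9877) and one labelled SS + minocycline (mouse 9887) held identical counts, and both were left out. The libraries of mouse 9674, labelled AA + RSD, went against their tissue labels and were left out as well, so AA + RSD holds 2 mice. That left 65 cortex and 63 hippocampus libraries, of 12 and 11 AA, 2 AA + RSD, 18 AA + RSD + minocycline, 1 AA + minocycline, 8 and 7 SS, 6 SS + RSD, 14 SS + RSD + minocycline and 4 SS + minocycline mice. Mouse numbers fall into separate runs, which were pooled into series A, B and C. Series A holds 5349 to 5400 and 9615 to 9674, and series B 5645 to 5900 and 9810 to 9910. Series C holds 7037 to 7121 and 10633 to 10639. The pooling is not given in the sources used here. In series A the AA mice are all of the second run and the SS control mice all of the first. Defeated mice without the drug (AA + RSD, SS + RSD) are all of series A, and defeated mice with the drug are of series B or C, so number series and drug cannot be told apart between them. Untreated control mice are of series A or B. Comparisons of AA + RSD or SS + RSD with them, in both tissues, therefore partly mix defeat with number series. The SS + minocycline mice are of series B or C, so their comparison with SS mice partly mixes minocycline with number series. The study's methods place minocycline and its plain-water controls in a second cohort, and to which cohort each mouse without the drug belongs is not given in the sources used here. Replicates are separate mice by their numbers.

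Prox1, Dsp and Lct rose and fell together across hippocampus libraries. C1ql2 had a coefficient of variation of 48.7% there, which was 27.4% without mouse 9631 (175 CPM), below those of Iyd (37.4%) and Tdo2 (32.7%). The 250 bases before the transcription start are shown for the 3 that moved together and for C1ql2, whose relation with Prox1 did not pass the test. They were read from GRCm39 at the canonical transcript start of GENCODE, on the gene's strand and 5′ to 3′. Capitals mark the E-box letters CANNTG, which basic helix-loop-helix factors are known to bind.
Prox1 (chr1:189903209-189903458, minus strand): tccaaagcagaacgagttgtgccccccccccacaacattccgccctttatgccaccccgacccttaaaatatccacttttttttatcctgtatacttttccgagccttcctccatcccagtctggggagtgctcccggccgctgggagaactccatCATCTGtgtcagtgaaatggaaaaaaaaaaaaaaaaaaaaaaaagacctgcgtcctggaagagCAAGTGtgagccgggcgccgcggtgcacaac
Dsp (chr13:38334980-38335229, plus strand): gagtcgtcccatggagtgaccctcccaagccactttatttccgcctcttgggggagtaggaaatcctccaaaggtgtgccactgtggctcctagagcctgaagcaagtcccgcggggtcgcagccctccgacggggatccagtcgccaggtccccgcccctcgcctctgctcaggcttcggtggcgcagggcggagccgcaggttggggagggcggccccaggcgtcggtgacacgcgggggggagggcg
Lct (chr1:128256056-128256305, minus strand): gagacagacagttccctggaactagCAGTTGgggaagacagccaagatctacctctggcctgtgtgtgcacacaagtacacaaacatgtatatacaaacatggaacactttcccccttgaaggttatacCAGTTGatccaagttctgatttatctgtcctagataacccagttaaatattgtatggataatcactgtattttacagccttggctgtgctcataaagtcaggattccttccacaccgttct
C1ql2 (chr1:120268050-120268299, plus strand): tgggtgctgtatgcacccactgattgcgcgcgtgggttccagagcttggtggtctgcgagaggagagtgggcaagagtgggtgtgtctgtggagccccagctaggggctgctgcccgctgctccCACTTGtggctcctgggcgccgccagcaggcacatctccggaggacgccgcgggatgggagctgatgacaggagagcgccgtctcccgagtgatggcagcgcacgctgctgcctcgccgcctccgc

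The Prox1 window held 2 of these matches, the Lct window 2, the C1ql2 window 1 and the Dsp window 0. The whole Dsp window is exonic sequence of Gm10129, an annotated gene on the other strand. Of 21757 windows of 250 bases before protein-coding genes, 64.8% held CANNTG, so a match is common. CANNTG reads the same on both strands, and the other letters were searched on both. An E-box form spelled CAGATG occurred in 13% of the windows, and the form CAGCTG in 11.9%. The TATA box letters TATAAA occurred in 11.9%, the GC box letters GGGCGG in 36.3%, the CCAAT box letters in 36.5% and the cyclic AMP element TGACGTCA in 1.7%. The form CAGATG lay in the Prox1, Tdo2, Calb1 and Fibcd1 windows, the GC box in those of Prox1, Dsp (3 matches) and Bok, and the CCAAT box in those of Tdo2 (2 matches) and Iyd. The other 3 occurred in 0 of the 10. GC content was 50.8% before Prox1, 68.8% before Dsp, 42.8% before Lct and 68% before C1ql2, against a median of 53.2% over all windows.

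Dsp and Lct had the largest ratios of medians between the tissues. Dsp encodes desmoplakin, which anchors intermediate filaments at desmosomes. Its level ran from 23.9 to 132 CPM in the hippocampus (median 60.9, n = 63) and from 0.08 to 2.45 CPM in the cortex (median 0.501, n = 65). The ratio of the medians was 122, the largest of the 10 genes. Lct, which encodes lactase, ran from 7.13 to 111 CPM in the hippocampus (median 38.8) and from 0.555 to 3.47 CPM in the cortex (median 1.47), a ratio of medians of 26.3. Tdo2, the dioxygenase that opens the ring of tryptophan, had medians of 8.52 and 0.394 CPM, a ratio of 21.6. Its cortex counts reached 63 reads at most, and 49.7% of its exonic bases overlap exons of Ctso on the other strand.

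Prox1 is the homeobox transcription factor on which granule cell identity depends. It ran from 45.3 to 175 CPM in the hippocampus (median 95.8) and from 6.67 to 23.8 CPM in the cortex (median 17.1), so the ratio of medians was 5.59 and no library of either tissue entered the range of the other. C1ql2 encodes a secreted C1q-like protein of mossy fibre synapses. It ran from 19.3 to 175 CPM in the hippocampus (median 39.5) and from 1.71 to 33.2 CPM in the cortex (median 7.81), and here the ranges met. The lowest hippocampus value was reached by 2 cortex libraries, and 20 of 63 hippocampus libraries lay at or below the highest cortex value. Calb1, the calcium buffer calbindin, is made by granule cells but also by CA1 and cortical neurons. It had medians of 119 and 87.1 CPM, and 48 of 65 cortex libraries reached the lowest hippocampus value.

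Of the other markers, Fibcd1 is known as a gene of CA1 pyramidal cells. It had medians of 168 CPM in the hippocampus (48.1 to 212) and 8.28 CPM in the cortex (3.06 to 21.5), a ratio of 20.3. Homer3, a postsynaptic scaffold that binds group I glutamate receptors, had medians of 56.9 and 7.32 CPM and the smallest relative spread among cortex libraries, a coefficient of variation of 13.1%. Iyd, the enzyme that removes iodine from iodotyrosines, had medians of 4.22 and 0.184 CPM, and its cortex counts ran from 0 to 50 reads. Bok, a member of the BCL-2 family, had medians of 67.3 and 44.8 CPM and all 65 cortex libraries reached the lowest hippocampus value. On a level per kilobase of exon, the order in the hippocampus was Fibcd1 (31.5 CPM per kb), Bok (27.5), C1ql2 (19.7), Calb1 (16.7), Homer3 (11.3), Prox1 (10.7), Dsp (6.28), Lct (6.06), Tdo2 (2.11) and Iyd (1.62). Neighbours such as Homer3 and Prox1, and Dsp and Lct, lay closer together than the spread of either over libraries.

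**Figure D1:**
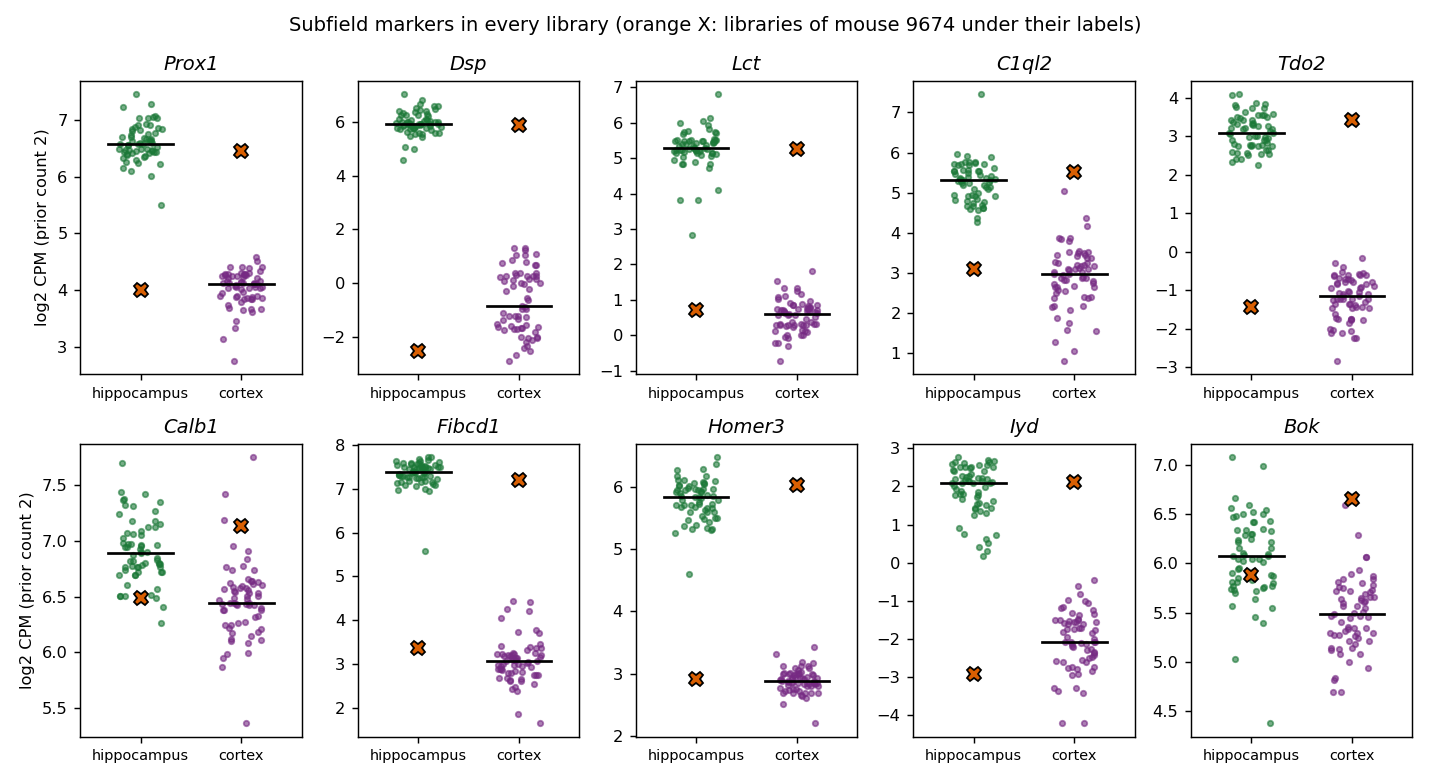
Level of each marker (log2 CPM with a prior count of 2) in every hippocampus library (green, n = 63) and cortex library (purple, n = 65), with the median as a line and the libraries of mouse 9674 under their labels as orange crosses. For 8 of the 10 genes the crosses sit among the libraries of the other tissue. Calb1 and Bok overlap widely between the tissues, and C1ql2 in part.

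Within mice the order of the tissues was the same for 8 markers. Of 63 mice with both libraries, the hippocampus was higher in 63 for Prox1, Dsp, Lct, C1ql2, Tdo2, Fibcd1, Homer3 and Iyd, in 59 for Calb1 and in 58 for Bok. The smallest difference within a mouse was 3.55 on the log2 scale for Dsp and 0.22 for C1ql2.

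The positions of the genes in GRCm39, from a GENCODE annotation that may be another release than the one counted, are as follows. Prox1 lies on chromosome 1 from 189850232 to 189904637 and shares 10.9% of its exonic bases with Prox1os on the other strand. Lct lies on chromosome 1 from 128212493 to 128256055, C1ql2 on chromosome 1 from 120268300 to 120270903, and Bok on chromosome 1 from 93613193 to 93623498. Dsp lies on chromosome 13 from 38335230 to 38382553 and shares 5.56% with Gm10129. Homer3 lies on chromosome 8 from 70735477 to 70747025 and shares 22.9% with Ddx49. Calb1 lies on chromosome 4 from 15881155 to 15908085, Fibcd1 on chromosome 2 from 31702948 to 31736233, Tdo2 on chromosome 3 from 81864248 to 81883509 and Iyd on chromosome 10 from 3490233 to 3505854. The strand setting of the counting is not given in the sources used here, so reads of these overlaps may belong to either gene.

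The library labelled 9674 cortex carried a hippocampal set of markers. It held 87.6 CPM of Prox1, 59.2 of Dsp, 37.9 of Lct, 45.5 of C1ql2, 10.8 of Tdo2, 148 of Fibcd1, 65.5 of Homer3 and 4.29 of Iyd. For all 8 the value lay within the range of the 63 hippocampus libraries and above the highest of the 65 cortex libraries. The library labelled 9674 hippocampus held 16.04 CPM of Prox1, 0.119 of Dsp, 1.58 of Lct, 8.47 of C1ql2, 0.317 of Tdo2, 10.3 of Fibcd1, 7.44 of Homer3 and 0.0792 of Iyd, each within the cortex range and below the lowest hippocampus library.

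A position was computed for each library as the mean over these 8 genes, with the mean log2 CPM of control cortex at 0% and of control hippocampus at 100%. Hippocampus libraries lay between 76.1% and 121%, and cortex libraries between -14.2% and 19.4%. The library labelled 9674 cortex lay at 100.2% and that labelled 9674 hippocampus at -2.88%. Genes the rule did not use gave the same order. Cux2, a transcription factor of upper cortical layers, ran from 44.5 to 155 CPM in cortex libraries and from 14.1 to 67.1 in hippocampus libraries, and was at 20.6 CPM in the library labelled 9674 cortex and 79.2 CPM in the one labelled 9674 hippocampus. The summed level of 8 cortical layer genes was 175 and 687 CPM in them, against a median of 639 CPM in cortex and 186 CPM in hippocampus libraries. Of those 8 genes 7 were higher in the cortex by median, Scnn1a being the exception. The library labelled 9674 cortex also held 4949 CPM of Ttr, the transthyretin of choroid plexus, a level that hippocampus libraries reached (3.34 to 9160 CPM) and cortex libraries did not (0.896 to 1131 CPM).

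**Figure D2:**
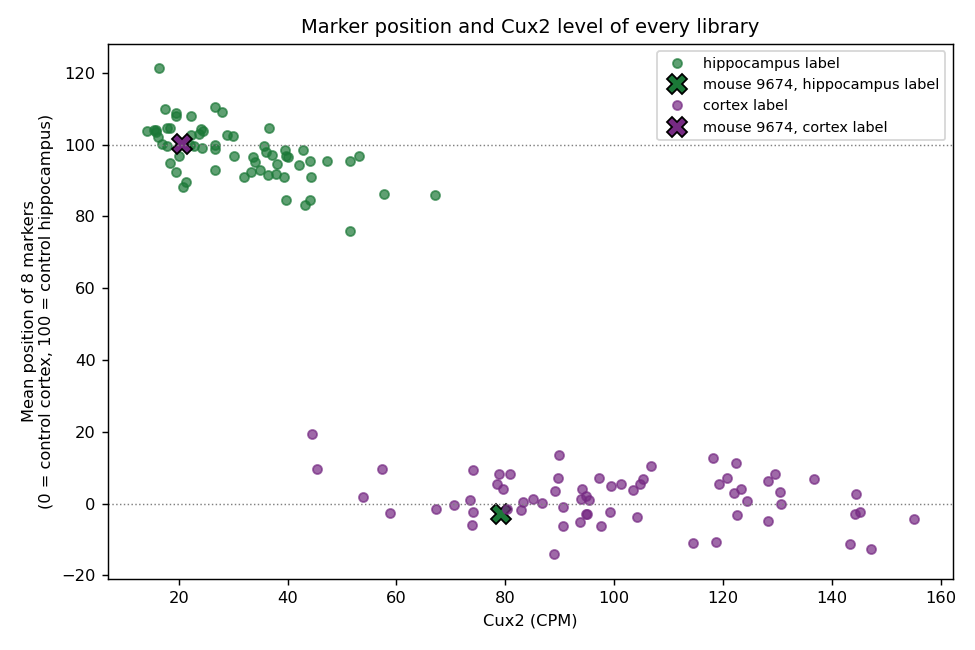
Mean position of 8 markers in percent against Cux2 in CPM, for hippocampus libraries (green) and cortex libraries (purple), with the libraries of mouse 9674 as crosses in the colour of their label. Hippocampus libraries lie between 76.1% and 121%, cortex libraries between -14.2% and 19.4%, and both crosses lie in the cloud of the other tissue.

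Hippocampus libraries differed among themselves in more than 1 way. Mouse 9812 (SS + RSD + minocycline) had the lowest Dsp (23.9 CPM), Lct (7.13) and Tdo2 (4.74) of all 63 and the lowest position, but 159 CPM of Fibcd1, near the median. Mouse 9810 of the same group had the reverse pattern. Its Prox1 (100.3 CPM), Dsp (60.9) and Lct (35.1) were near the medians, while its Fibcd1 (48.1), Homer3 (24.2), Bok (20.7) and Calb1 (76.8) were the lowest of all. Its cortical layer genes summed to 451 CPM, the highest among hippocampus libraries, and those of mouse 9812 to 255 CPM. Their part in these levels was not tested.

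Mouse 9631 (AA) stood at the other end, with the highest Lct (111 CPM), C1ql2 (175), Homer3 (89.3) and Bok (135) of the 63. Mouse 5648 (AA + RSD + minocycline) had the lowest Prox1 (45.3 CPM) with 154 CPM of Calb1. In the cortex, mouse 5896 (AA + RSD + minocycline) had the most C1ql2 (33.2 CPM) and the least Calb1 (41.02 CPM) and Cux2 (44.5 CPM), and mouse 5801 (SS + RSD + minocycline) had the most Calb1 (215 CPM) and the least summed cortical layer genes (272 CPM).

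Pairs of granule cell markers differed in how closely they followed each other. After the group mean was taken out, Prox1 and Dsp followed each other over 62 hippocampus libraries (Pearson r = 0.84, Spearman rho = 0.83, permutation p = 1e-05 for both, the smallest the 100000 resamples can give, adjusted p = 6e-05 over 6 relations). Within the series r was 0.91 (A, n = 13), 0.82 (B, n = 42) and 0.94 (C, n = 7), and it was 0.81 without the 2 libraries farthest in Prox1 (mice 9879 and 5648). Prox1 and Iyd were related more weakly (r = 0.38, rho = 0.37, permutation p = 0.0022 and 0.00315, adjusted p = 0.0066 and 0.00945). Within the series r was 0.37, 0.44 and 0.59, and without the same 2 libraries 0.32.

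Prox1 and C1ql2 showed no relation that passed the test (r = 0.16, rho = 0.19, permutation p = 0.222 and 0.146, adjusted p = 0.362 and 0.292), with r = 0.69 in series A, 0.02 in series B and 0.55 in series C, and 0.27 without the 2 libraries. Neither did Prox1 and Fibcd1 (r = -0.15, rho = -0.16, permutation p = 0.241 and 0.223, adjusted p = 0.362 and 0.335, r = -0.10, -0.18 and 0.01 in series A, B and C, and -0.15 without the 2 libraries). For Prox1 and Cux2, r was -0.03 and rho -0.03 (permutation p = 0.815 and 0.795, adjusted p = 0.815 and 0.917). Its series values were -0.56, 0.03 and 0.05, and r was -0.08 without the 2 libraries. Prox1 in the hippocampus and in the cortex of the same mouse gave r = 0.03 and rho = 0.01 (permutation p = 0.81 and 0.917, adjusted p = 0.815 and 0.917), with 0.24, 0.04 and -0.53 within the series. It changed sign without the 2 libraries, to -0.03.

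**Figure D3:**
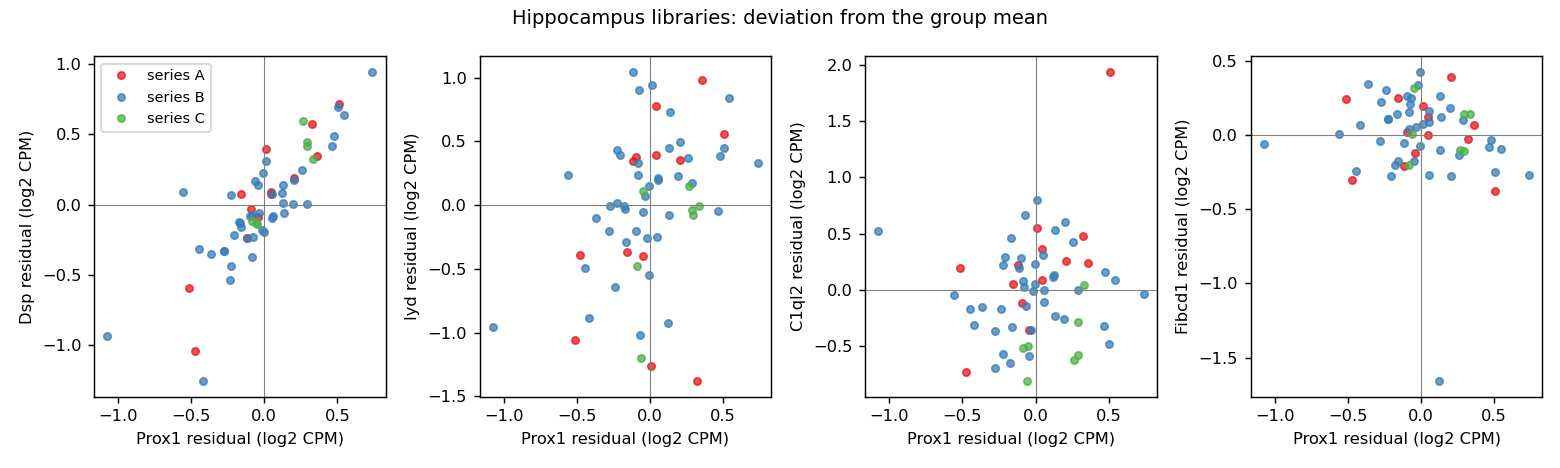
Deviation of each hippocampus library from its group mean in log2 CPM, for Prox1 (x axis) against Dsp, Iyd, C1ql2 and Fibcd1 (y axes), over 62 libraries coloured by number series. Points follow a rising line for Dsp (r = 0.84), a looser one for Iyd (r = 0.38) and none for Fibcd1 (r = -0.15), where 1 library of series B lies far below the rest.

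As a description, without a test, the 3 pairs among Prox1, Dsp and Lct had r from 0.68 to 0.84. The 3 pairs among C1ql2, Tdo2 and Calb1 had r from 0.38 to 0.75, highest for Tdo2 and Calb1. The 9 pairs between these trios had r from -0.03 to 0.46 (median 0.23). The highest of them, Lct with Tdo2, lay above the 0.38 of C1ql2 with Calb1, so the trios were not cleanly apart. Homer3 was positively related to each of the other 9 markers (0.24 to 0.69, highest with Bok), and Fibcd1 with the 6 dentate markers gave -0.15 to 0.21. All of these points share their libraries and their depth.

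The genes outside the 10 whose deviation was most like the mean of Prox1, Dsp, Lct, C1ql2 and Tdo2, among 13425 genes whose log2 CPM averaged 1 or more, were Plekha2 (r = 0.92, n = 62 libraries), Orai2 (0.87), Npnt (0.85), Pla2g2f (0.85), Fam163b (0.83), Epha7 (0.83), Pdyn (0.81) and Pgbd5 (0.79). Orai2 encodes a store-operated calcium channel subunit, Epha7 an ephrin receptor and Pdyn the precursor of dynorphin. Their tissue levels did not all follow the markers. Pla2g2f, a secreted phospholipase, had medians of 2.85 CPM in the hippocampus and 0.0524 CPM in the cortex, but Pdyn had 14.1 and 27.9 CPM and Npnt 35.6 and 39.9 CPM.

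Other field genes, chosen from general knowledge with earlier results of these data known, were mostly higher in the hippocampus by median. This held for 6 of 8 further dentate genes (from Dock10 at 112 CPM to Glis3 at 17.7 CPM), 6 of 7 CA1 genes (over the 7, hippocampus medians ran from Mpped1 at 244 CPM to Lefty1 at 9.12 CPM), 4 of 5 CA2 genes (from Rgs14 at 112 CPM to Map3k15 at 3.46 CPM), 5 of 5 CA3 genes (from Grik4 at 58.5 CPM to Prss35 at 9.89 CPM), 3 of 3 mossy cell genes and 5 of 5 genes of the ventral hippocampus. Of the exceptions, Mpped1 had a median of 267 CPM in the cortex, Pcp4 13.9 against 7.70 CPM, Pdzd2 86.6 against 66.3 CPM and Npnt the values above.

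The first set of questions was whether genotype, defeat or minocycline moved the markers in the hippocampus. All 10 passed the filter on low counts in each comparison, and 0 of 10 were called by edgeR's quasi-likelihood test in any of the 9 comparisons of groups. At an unadjusted p under 0.05 there were 2 of 90 tests, and the Wald test of DESeq2 called 0 of 10 in each.

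**Figure D4:**
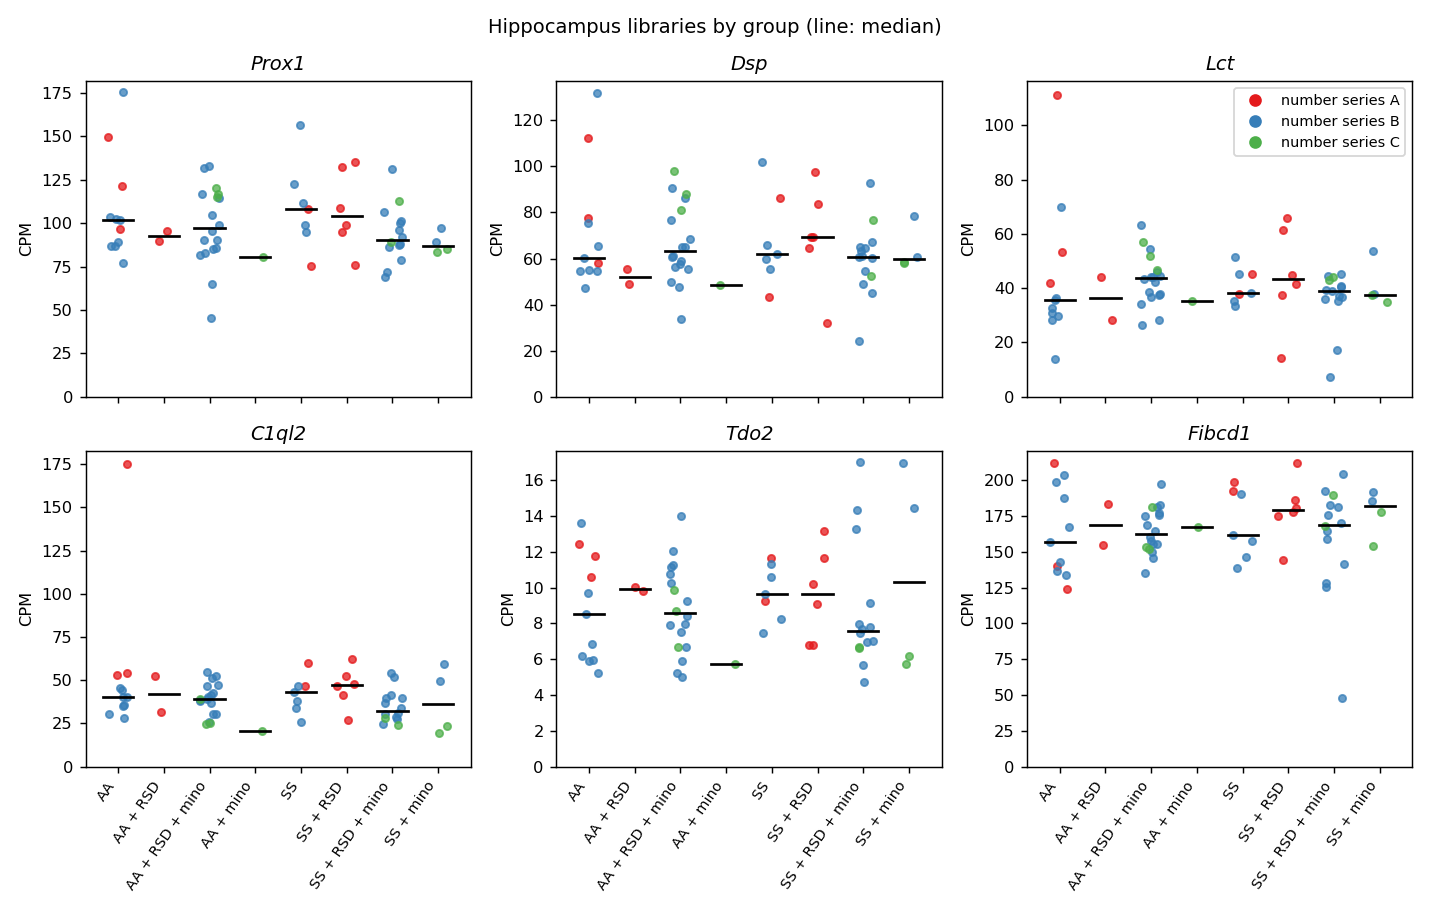
CPM of 5 dentate markers and of Fibcd1 in each hippocampus library by group, coloured by number series, with the group median as a line. The groups overlap for every gene shown, AA + RSD holds 2 libraries and AA + minocycline 1.

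Between SS and AA mice 0 of 10 markers were called, where 0.158% of 23372 genes were. The median log2 difference was -0.08 over the markers and 0.01 over all genes. Prox1 ran from 75.1 to 156 CPM in 7 SS mice (median 108) and from 77.1 to 175 CPM in 11 AA mice (median 102). Iyd had the smallest p, with 1.18 to 6.04 CPM in SS mice (median 3.37) and 2.79 to 6.47 CPM in AA mice (median 4.37). The groups overlapped and the log2 difference was -0.48 ± 0.28 (SE, adjusted p = 1).

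Between SS + RSD and AA + RSD mice 0 of 10 were called, against 0.0171% of genes, with a median log2 difference of 0.27 over the markers and 0 over all genes. Dsp had the smallest p. It was at 48.8 and 55.2 CPM in the 2 AA + RSD mice and ran from 31.9 to 97.8 CPM in the 6 SS + RSD mice, a log2 difference of 0.49 ± 0.35 (SE, adjusted p = 1). The interaction of genotype and RSD called 0 of 10 and 0.0128% of genes. Dsp again had the smallest p, at 0.60 ± 0.40 on the log2 scale (SE, adjusted p = 1.00).

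Between mice with defeat and drug of the SS (SS + RSD + minocycline) and of the AA genotype 0 of 10 were called, against 2.73% of genes, with medians of -0.12 over the markers and -0.01 over all genes. Iyd had the smallest p, with 1.49 to 5.81 CPM in 14 SS mice (median 3.38) and 2.42 to 6.25 CPM in 18 AA mice (median 4.78). Its log2 difference of -0.56 ± 0.21 had an adjusted p of 0.212.

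In defeat against control, AA + RSD and AA mice gave 0 of 10 against 0.0419% of genes, with Dsp at the smallest p (47.004 to 132 CPM in AA mice, log2 difference -0.49 ± 0.31, adjusted p = 0.899). SS + RSD and SS mice gave 0 of 10 against 3.11% of genes. All 10 fitted differences were positive there, with a median of 0.16 over the markers and 0.06 over all genes. The SS + RSD mice are all of series A, while SS controls are 2 of series A and 5 of series B. Defeat and number series are therefore partly mixed, and control mice of the series differed as well, as given below. Bok had the smallest p. It ran from 64.7 to 94.3 CPM in SS + RSD mice (n = 6) and from 46.6 to 85.9 CPM in SS mice (n = 7), a log2 difference of 0.37 ± 0.26 (SE, adjusted p = 0.451). Prox1 had medians of 108 CPM in SS mice and ran from 75.9 to 135 CPM after defeat.

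With minocycline added to defeat, AA mice gave 0 of 10 against 0.0419% of genes. Iyd had the smallest p, at 2.49 and 4.35 CPM in the 2 AA + RSD mice and a log2 difference of 0.56 ± 0.29 (SE, adjusted p = 0.696). With the number series as a term of the model, 3 of 10 were called in this comparison, against 6.42% of genes, all higher with minocycline: Bok (1.10 ± 0.29, adjusted p = 0.016), C1ql2 (1.41 ± 0.43, adjusted p = 0.0451) and Iyd (1.20 ± 0.35, adjusted p = 0.0345). The term rests on the AA control mice, the only AA group with libraries of both series A and B. Those of series A are 3, among them mouse 9631, with the highest C1ql2 (175 CPM) and Bok (135 CPM) of all hippocampus libraries. The fit with the term was not repeated without that mouse. Without the term the log2 difference was -0.02 for Bok and -0.06 for C1ql2.

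In SS mice minocycline with defeat gave 0 of 10 against 5.96% of genes. All 10 fitted differences were negative, with a median of -0.28 over the markers and -0.03 over all genes. Prox1 had the smallest p. It ran from 68.95 to 131 CPM in 14 SS + RSD + minocycline mice (median 90.5) and from 75.9 to 135 CPM in the 6 SS + RSD mice, a log2 difference of -0.27 ± 0.13 (SE, adjusted p = 0.18). The groups overlapped, and they share no number series. The markers were lower without a call, and some genes of other cell types were called lower. They were Aldh1l1 of 3 astrocyte genes, Cx3cr1 of 3 microglial, Pecam1 of 3 endothelial and Kl of 7 choroid plexus genes. The median log2 differences of these lists were -0.32, -0.38, -0.51 and -2.59. Summed levels ran from 335 to 651 CPM with the drug and 491 to 711 CPM without it for astrocytes, 93.5 to 139.9 and 123 to 162 CPM for microglia, 97.7 to 191 and 178 to 194 CPM for endothelium, and 23.5 to 2252 and 36.04 to 9269 CPM for choroid plexus. In each group every gene of the first 3 lists was above 0 in all libraries, and 1 choroid plexus gene was at 0 in an SS + RSD library. Their part in the markers' values was not tested. With 0 called, medians were also negative for oligodendrocyte (-0.15), CA1 (-0.09), CA3 (-0.13), striatal (-0.17), thalamic (-0.09) and further dentate genes (-0.09). Not all lists were lower. Median log2 differences were 0.004 for neuronal genes (0 called), 0.22 for CA2, 0.16 for cortical layer and 0.14 for ventral genes. For mossy cell genes the median was 0.27, with 1 called higher. Minocycline alone in SS mice gave 0 of 10 against 0% of 20701 genes, of which 449 had an unadjusted p under 0.05. Prox1 was at 83.3, 84.9, 89.1 and 97.1 CPM in the 4 SS + minocycline mice, a log2 difference of -0.22 ± 0.17 from SS mice (SE, adjusted p = 0.981).

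Untreated control mice of series B and A, compared with genotype as a term, differed in 40.8% of 21210 genes in the hippocampus. Of the markers 4 of 10 were called, Bok, C1ql2, Lct and Tdo2, all lower in series B, a share near that of all genes. By DESeq2 4 were called as well, against 46.2% of genes. Genes of other cells and fields were called lower in series B too. These were 2 of 3 each for astrocytes, oligodendrocytes, microglia and endothelium, 3 of 7 of CA1 and 3 of 5 of CA2. Of 3 neuronal genes 0 were called. Other lists went both ways. Called higher in series B were 1 of 5 CA3, 1 of 8 further dentate, 1 of 3 mossy cell and 1 of 8 cortical layer genes. Called lower were 1 mossy cell, 2 cortical layer, 2 of 5 striatal, 1 of 4 thalamic and 1 of 5 ventral genes. These lists are short beside the 40.8% of all genes. Summed levels in series A and B ran from 577 to 734 and 376 to 726 CPM for astrocytes, 3129 to 6518 and 2552 to 6118 CPM for oligodendrocytes, 117 to 133 and 88.04 to 132 CPM for microglia, and 117 to 223 and 104 to 175 CPM for endothelium. No gene of these 4 lists was at 0 in a library, and their part in the markers' values was not tested.

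Bok was at 80.2, 127 and 135 CPM in the AA mice of series A and ran from 52.007 to 67.5 CPM in the 8 of series B (median 55.3). In SS mice it was at 71.4 and 85.9 CPM in series A and at 46.6, 55.6, 68.7, 71.4 and 81.2 CPM in series B. The series did not overlap in AA mice and did in SS mice, and the log2 difference was -0.84 ± 0.14 (SE, adjusted p = 0.000306).

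C1ql2 was at 53.2, 54.2 and 175 CPM in AA mice of series A and ran from 28.1 to 45.3 CPM in series B. In SS mice it was at 46.8 and 59.8 CPM in series A, above the 26.003, 34.1, 37.8, 43.2 and 46.6 CPM of series B. The log2 difference was -1.15 ± 0.23 (SE, adjusted p = 0.000921), and neither genotype overlapped between the series.

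Lct was at 42.1, 53.4 and 111 CPM in AA mice of series A against 13.9 to 69.9 CPM in series B, and at 37.7 and 45.4 CPM against 33.3, 35.2, 38.3, 45.2 and 51.3 CPM in SS mice. Both genotypes overlapped, and the log2 difference was -0.76 ± 0.27 (SE, adjusted p = 0.0306). Tdo2 was at 10.6, 11.8 and 12.5 CPM in AA mice of series A against 5.25 to 13.6 CPM in series B, and at 9.24 and 11.7 CPM against 7.45, 8.25, 9.61, 10.6 and 11.3 CPM in SS mice, a log2 difference of -0.53 ± 0.18 (SE, adjusted p = 0.029). Prox1 and Dsp were not called between the series. Without mouse 9631, the highest of the AA mice of series A for Bok, C1ql2 and Lct, 2 of 10 were called, against 35.1% of genes: Bok (-0.70) and C1ql2, whose log2 difference was then -0.62 (adjusted p = 0.00311). Lct (-0.37, adjusted p = 0.237) and Tdo2 (-0.52, adjusted p = 0.0542) were not called without it. Without mice 5844, 5853, 7078 and 9631, 3 of 10 were called, against 37.4% of genes: Bok, C1ql2 and Fibcd1 (-0.33, adjusted p = 0.0356).

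**Figure D5:**
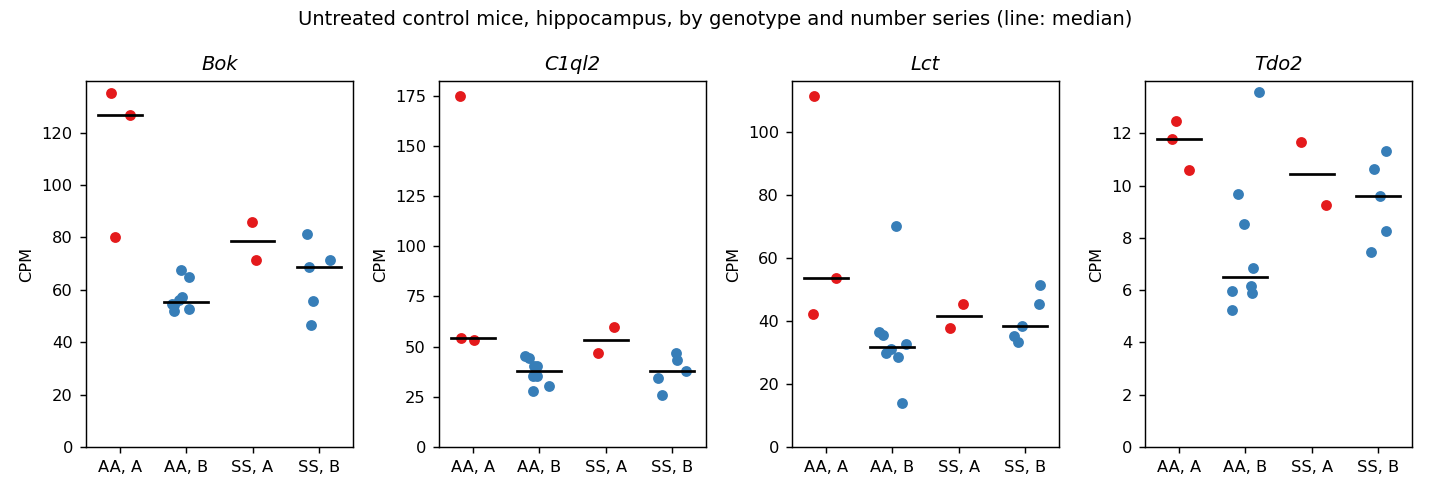
CPM of the 4 markers called between the number series in hippocampus libraries of untreated control mice, by genotype and series (A red, B blue), with medians as lines. For Bok and C1ql2 the AA mice of series A lie above all those of series B, and for Lct and Tdo2 the series overlap.

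In the cortex, where most of the markers are at a small part of their hippocampal level, 0 of 10 were called in any of the 9 comparisons of groups by edgeR, with 7 of 90 tests at an unadjusted p under 0.05 and 0 by DESeq2. The cortex medians of the 8 markers other than Calb1 and Bok were between 0.823% (Dsp) and 19.8% (C1ql2) of their hippocampus medians.

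Between SS and AA mice 0 of 10 were called against 0.206% of 22870 genes. Prox1 had the smallest p, with 12.5 to 19.3 CPM in 8 SS mice (median 14.5) and 14.4 to 20.1 CPM in 12 AA mice (median 18.1), a log2 difference of -0.29 ± 0.13 (SE, adjusted p = 0.678). Between mice with defeat and drug of the SS (SS + RSD + minocycline) and of the AA genotype 0 of 10 were called against 0.599% of genes, again with Prox1 at the smallest p (medians of 16.3 and 17.9 CPM, log2 difference -0.24 ± 0.10, adjusted p = 0.439).

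The comparisons with AA + RSD turned on Iyd, which had 0 reads in both of its cortex libraries. A count of 0 in 53237890 reads allows up to 0.0564 CPM (3 counts over both libraries, counting error only). Taken alone, the libraries allow up to 0.0959 CPM (mouse 9643) and 0.137 CPM (mouse 9646). AA mice ran from 0.0753 to 0.452 CPM (median 0.184) and SS + RSD mice from 0.111 to 0.328 CPM. The limit of mouse 9646 lies within both ranges, and that of mouse 9643 within the range of the AA mice only. The AA mice of series A, the series of the AA + RSD mice, ran from 0.110 to 0.143 CPM (median 0.129). That range holds the limit of mouse 9646 and lies above that of mouse 9643. Iyd had the smallest p in SS + RSD against AA + RSD mice (0 of 10 called, 0% of genes, adjusted p of Iyd 0.268), in AA + RSD against AA mice (0 of 10, 0% of genes, adjusted p = 0.822), in AA + RSD + minocycline against AA + RSD mice (0 of 10, 0% of genes, adjusted p = 0.193, but with the number series as a term Iyd was called higher with minocycline, adjusted p = 0.0381, against 5.57% of genes) and in the interaction (0 of 10, 0% of genes, adjusted p = 0.852). At an unadjusted p under 0.05 there were 670, 1148, 2867 and 424 genes in these comparisons. Fitted fold changes against libraries at 0 depend on the prior count and are not given.

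SS + RSD against SS mice called 0 of 10 against 2.57% of genes, with Fibcd1 at the smallest p. It was at 6.70, 8.93, 9.50, 10.2, 18.6 and 19.1 CPM after defeat and ran from 6.38 to 12.9 CPM in SS mice, a log2 difference of 0.58 ± 0.29 (SE, adjusted p = 0.186). SS + RSD + minocycline against SS + RSD mice called 0 of 10 against 8.85% of genes, with Bok at the smallest p (medians of 42.1 CPM with minocycline and 30.6 to 67.1 CPM without, log2 difference -0.36 ± 0.22, adjusted p = 0.289, and 0.18 with the number series as a term). SS + minocycline against SS mice called 0 of 10 against 0% of genes (1406 at an unadjusted p under 0.05), with Dsp at the smallest p (0.27, 1.24, 1.75 and 2.01 CPM against 0.103 to 1.17 CPM, log2 difference 1.12 ± 0.65, adjusted p = 0.756). In series B alone Bok was called higher with minocycline there (0.99 ± 0.25, adjusted p = 0.00939), against 27.1% of genes. The SS + minocycline mice of that fit were only 9888 and 9889. Mouse 9889 had the highest Bok (96.4 CPM) and the lowest Prox1 (6.67 CPM) of the 65 cortex libraries, and its part in the call was not tested. Over all 4 SS + minocycline mice Bok was not called (log2 difference 0.26 ± 0.28, adjusted p = 0.87).

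Control mice of series B and A differed in 40.3% of 19710 genes in the cortex. Of the markers 2 of 10 were called by edgeR, 1 by DESeq2 (41.9% of genes) and 1 by edgeR without the low-count filter (21.6%). Bok was lower in series B (38.6, 47.3, 52.5 and 57.3 CPM in AA mice of series A against 35.2 to 56.2 CPM, log2 difference -0.34 ± 0.12, adjusted p = 0.0279), as was Tdo2 (0.247, 0.476, 0.525 and 0.629 CPM against 0.245 to 0.603 CPM, log2 difference -0.68 ± 0.27, adjusted p = 0.0476). Both overlapped between the series in AA mice. In SS mice Tdo2 did not overlap (0.509 and 0.548 CPM in series A, 0.0864 to 0.316 CPM in series B), while Bok did (51.4 and 67.04 CPM against 31.9 to 53.1 CPM). Without mouse 9631, 9 markers passed the filter and 1 was called, Bok (-0.41, adjusted p = 0.00995), against 39% of genes, and Tdo2 had an adjusted p of 0.0979. Without mice 5844, 5853, 7078 and 9631, 3 of 9 were called lower in series B, against 42.9% of genes: Bok, Calb1 (-0.23, adjusted p = 0.0463) and Fibcd1 (-0.35, adjusted p = 0.0397).

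The libraries of mouse 9674 changed the cortex calls in 4 comparisons. The markers were chosen on the tissue difference, so a library with hippocampal levels in a cortex group fixes such calls in advance. They are no test of defeat, genotype or minocycline. With both kept under their labels, 7 of 10 were called in AA + RSD against AA mice, against 0.853% of genes. All were higher in the AA + RSD group, led by Dsp (log2 difference 5.08 ± 0.81, adjusted p = 0.000289) and Tdo2 (3.30 ± 0.43, adjusted p = 1.57e-05). The others were Lct, Iyd, Fibcd1, Homer3 and Prox1. In AA + RSD + minocycline against AA + RSD mice 7 of 10 were called, all lower than in AA + RSD (3.6% of genes). In SS + RSD against AA + RSD mice 6 of 10 were called, again lower than in AA + RSD (0.493%), and in the interaction 5 of 10 (0.236%). With the tissue labels of mouse 9674 exchanged, 0 of 10 were called in each of these.

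Field genes outside the 10 gave few calls between groups of genotype, defeat and minocycline. Csf2rb2, counted here as a mossy cell gene, was lower in the hippocampus of SS + RSD than of SS mice (log2 difference -1.20 ± 0.29, adjusted p = 0.041) and higher in SS + RSD + minocycline than in SS + RSD mice (0.87 ± 0.26, adjusted p = 0.0466). These share the SS + RSD mice, and the shares of all genes called were 3.11% and 5.96%. It was also higher in series B than A among control mice (1.10 ± 0.25, adjusted p = 0.00226). Of the 8 further dentate genes 0 were called in the hippocampus in any of the 9 comparisons of groups, and 1, Glis3, between the series (higher in B, 0.60 ± 0.23, adjusted p = 0.0446). In the cortex, minocycline in defeated SS mice called 1 of 7 CA1 genes lower and 1 of 5 CA2 genes higher (8.85% of genes). Between SS and AA mice with defeat and drug, 1 of 8 cortical layer genes was called higher in the hippocampus (2.73% of genes). In the cortex of the same groups 4 of 5 striatal genes were called higher in SS mice (0.599% of genes). The cause was not tested.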

How the data were processed

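Reads of strand-specific libraries were aligned by the authors with STAR (GRCm39), and the deposited tables, 1 a tissue, hold whole read counts per GENCODE gene without normalization. The annotation release and the strand setting of the counting are not given in the sources used here. Lines that name no gene (unmapped reads had medians of 12.4% for cortex and 13.3% for hippocampus libraries) stayed out of library sizes. Left unused were 3 table columns without a matching grouped library, and 1 library whose labels name different tissues.

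Counts were tested in R 4.3.3 with edgeR 4.0.16: filterByExpr by group (minimum count 10, minimum total 15), TMM, glmQLFit and glmQLFTest, Benjamini-Hochberg adjustment over all genes tested, and a call at an adjusted p under 0.05. Comparisons within a genotype used 1 model of its groups and those between genotypes 1 model of all groups. Control mice of the number series were compared with genotype as a term. DESeq2 1.42.0 was an alternative, and both tools were tested on simulated data. Log2 CPM used a prior count of 2. Relations used residuals from group means, Python 3.11.15, scipy 1.17.1 and two-sided permutation tests of 100000 resamples.

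The members and lists were chosen with earlier results of these data known. Genes named are the 10 members, for each comparison every member called or otherwise the one with the smallest p, the 8 genes of most similar deviation, and for each list of field genes those with the highest and lowest hippocampal level. Those named beyond this (called or exceptional list genes, and libraries that stand apart) were chosen after their values were seen.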

Additional observations from a re-analysis of the deposited data

Results flagged for a closer look

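A mouse stood apart from the rest of its group in 6 of 60 sets of a marker, a tissue and a group of 4 to 8 mice. The measure was the gap to its nearest neighbour over the group's range, on log2 CPM, against Dixon's critical value. Chance alone flags about 1 in 20 such groups. In the hippocampus of SS + RSD mice, mouse 9621 had 31.9 CPM of Dsp (the other 5 had 64.3 to 97.8) and 14.2 CPM of Lct (37.4 to 65.9). These ratios, 0.626 and 0.632, were barely above the critical value of 0.625. The cortex library of mouse 9621 had 145 CPM of Calb1, where the other 5 had 86.0 to 97.6. In the hippocampus of SS + minocycline mice, mouse 9888 had 78.6 CPM of Dsp against 58.02 to 60.7 in the other 3. In the cortex of SS mice, mouse 9822 had 67.6 CPM of Calb1 (the other 7 had 84.2 to 101) and 6.42 CPM of Homer3 (7.57 to 8.64). Without mouse 9621, or without mouse 9888, 0 of 10 markers were called in the comparisons of their groups in both tissues, as with them.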

How the results depend on the processing

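Of 256 counts of markers called under alternatives, 245 stayed within 1.5 times the reported count. With mouse 9674 kept under its labels, the cortex counts rose from 0 to 7 (AA + RSD against AA), 7 (AA + RSD + minocycline against AA + RSD), 6 (SS + RSD against AA + RSD) and 5 (interaction), and Iyd changed sign in these 4 (2.79, -2.48, -2.76 and -2.43 on the log2 scale). With the number series as a term, AA + RSD + minocycline against AA + RSD gave 3 calls in the hippocampus and 1 in the cortex, Iyd, and Bok changed sign in the cortex of SS + RSD + minocycline against SS + RSD mice (0.18). In series B alone, SS + minocycline (mice 9888 and 9889) against SS gave 1 call in the cortex (Bok, 0.99). Iyd changed sign in series B alone in the hippocampus of SS against AA mice (0.035). Between the number series of control mice, cortex calls fell from 2 to 1 without the low-count filter, by DESeq2 and without mouse 9631, and hippocampus calls from 4 to 2 without mouse 9631, an alternative added after seeing the data. Without mice 5844, 5853, 7078 and 9631, 3 were called in each tissue, Fibcd1 (both) and Calb1 (cortex) being gained and Tdo2 (both) and Lct (hippocampus) lost. The causes were not tested. Also added were leaving out mice 9810 and 9812, which left 0 calls, and series B alone for minocycline-treated defeated mice. The relation of Prox1 between the tissues turned to -0.031 without the 2 farthest libraries. Leaving out each AA + RSD (with mouse 9674 exchanged), SS + RSD or SS + minocycline mouse in turn gave 0 calls in each comparison. Of 140 group levels, 136 moved by less than 1 SD on TMM-scaled CPM. No paired analysis was possible because mice are shared only between the tissues, whose difference chose the markers. With 2 AA + RSD mice, and with cortex counts of Iyd down to 0 and of Tdo2 down to 2 reads, small differences could not be seen.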
